A study of Mus musculus with 24 samples.

Results

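The transcripts described here are 40 messenger RNAs that hepatocytes make in large amounts, measured in mouse blood. They are 40 of the 29742 named genes on the array and are read by 52 of its 39429 probes, each probe being found by its gene name. The list was chosen with the signals of irradiated mice in view, above all those of 6 arrays, young irradiated mice 2, 4 and 5 and old irradiated mice 2, 3 and 5. The values of irradiated mice are therefore a description, and counts of calls in fits that include them are given beside the share of all genes, restate the choice of the list and support nothing about it. A level is log2 of the background-subtracted signal minus the median log2 signal of the same array, so that 1 unit is a factor of 2 and 0 is the median spot of that array. Levels were compared only between arrays for the same probe, because the brightness of different probes depends on the probe as well as on the RNA.

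Hepatocytes secrete most proteins of the plasma, such as albumin, the apolipoproteins, the clotting factors and the protease inhibitors. They also hold the enzymes of the urea cycle, of gluconeogenesis, of amino acid breakdown and of drug oxidation. Blood leukocytes are not known to make most of these transcripts, and in the liver the metabolic enzymes are spread unevenly between the portal and the central end of the lobule.

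The study asked how age changes the response of blood RNA to ionizing radiation. Blood RNA of 24 male C57BL/6J mice was hybridized to single-dye (Cy3) Agilent arrays, with 1 mouse per array. There were 4 groups of 6 mice. Young unirradiated and young irradiated mice were 2 months old, and old unirradiated and old irradiated mice were 21 months old. Irradiated mice received 4 Gy of x-rays to the whole body and unirradiated mice were sham-irradiated, in all cases restrained and without anesthesia. Blood was drawn from the heart 24 h later, after CO2 asphyxiation, into a stabilizing and lysing solution, so plasma and all blood cells contributed to the RNA. Globin RNA was depleted in every sample, and the mice were on standard chow.

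Median signal per array lay between 8.66 and 44.8, and between 43.9% and 64.4% of spots were marked well above background by the scanner software. The 6 slides held 4 arrays each and mice of a single age each, and young and old mice were scanned on different days, so that scan day and age cannot be told apart. The 10 leukocyte markers, among them *Ptprc*, *Cd3e*, *Cd79a*, *Ms4a1*, *Itgam*, *S100a8*, *S100a9*, *Csf1r* and *Lyz2*, were well above background in all 24 mice, as the label blood requires. In bulk RNA, fewer cells of a type and less RNA per cell cannot be told apart. No spot of the 40 transcripts was saturated or missing on any array. Old irradiated mice 4 and 6 stood apart from the rest of their group over all probes. Their arrays had the lowest median signals (8.66 and 8.84), and over 13720 probes they differed from the other old irradiated arrays by an SD of 1.67 to 1.91 and from each other by 0.311.

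The DNA just upstream of these genes is shown first, because hepatocyte genes share binding motifs of a few liver factors in their promoters. The RefSeq promoter table used here, of the mouse build GRCm38.p6, has an entry under these symbols for 34 of the 40 genes, and the 250 bases before each gene start were searched on both strands. The letters GTTAAT, a motif known from liver promoters, occurred upstream of 11 of the 34 genes (32.4%) and of 7.49% of the 27025 genes with a promoter. Of the 11, 4 are printed 5′ to 3′ on the strand of the gene, with the match in capitals, for *Alb* at chr5:90460620-90460869 on the plus strand, *Gc* at chr5:89457899-89458148 on the minus strand, *Fabp1* at chr6:71199629-71199878 on the plus strand and *Vtn* at chr11:78498870-78499119 on the plus strand. The matches start 32, 52, 107 and 112 bases before the gene start, and that of *Vtn* lies on the opposite strand.
Alb: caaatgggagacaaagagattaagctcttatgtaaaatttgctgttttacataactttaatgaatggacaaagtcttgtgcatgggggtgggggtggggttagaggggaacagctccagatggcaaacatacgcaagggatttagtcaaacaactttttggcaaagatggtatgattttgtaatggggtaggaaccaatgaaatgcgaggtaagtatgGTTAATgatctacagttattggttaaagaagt
Gc: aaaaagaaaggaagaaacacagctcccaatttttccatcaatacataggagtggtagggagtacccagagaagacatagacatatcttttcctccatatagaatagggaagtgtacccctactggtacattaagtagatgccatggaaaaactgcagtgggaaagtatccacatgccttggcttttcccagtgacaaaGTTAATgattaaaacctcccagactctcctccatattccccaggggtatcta
Fabp1: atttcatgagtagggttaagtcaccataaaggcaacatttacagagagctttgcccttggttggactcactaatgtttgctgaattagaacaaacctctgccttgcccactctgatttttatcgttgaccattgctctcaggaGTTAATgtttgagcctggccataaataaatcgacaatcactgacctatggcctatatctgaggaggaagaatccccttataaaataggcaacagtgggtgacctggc
Vtn: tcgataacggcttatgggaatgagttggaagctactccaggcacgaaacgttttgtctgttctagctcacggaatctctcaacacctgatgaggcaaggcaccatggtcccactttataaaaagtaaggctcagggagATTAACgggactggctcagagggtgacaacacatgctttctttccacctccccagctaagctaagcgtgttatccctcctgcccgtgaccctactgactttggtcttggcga

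The remaining 7 genes with this match were *Fga*, *Fgb*, *Serpina1a*, *Itih1*, *Cyp2d26*, *Pck1* and *G6pc*. TGTTTNC, a FOXA site, was present upstream of 15 of the 34 genes (44.1%) and of 19.9% of all genes. TATAAA was present upstream of 13 (38.2%) and of 14.3% of all genes. CCAAT was equally frequent in both, upstream of 13 (38.2%) and of 37.5% of all genes. CAAAGTCCA, an HNF4 site, matched upstream of *Cyp3a11* alone, which is 2.94% of the 34 against 0.451% of all genes. The C/EBP palindrome TTGCGCAA matched upstream of 0 of the 34 genes and of 0.185% of all genes. A longer palindrome that contains GTTAAT matched upstream of 0 of the 34 genes and of 0.0111% of all genes. None of the other motifs contains another. A match of letters is not evidence of a bound factor.

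Hepatocyte transcripts ranged from undetected to bright across the 24 mice, where detected means that the scanner software marked the spot as well above background. In young irradiated mice 2, 4 and 5 and old irradiated mice 2, 3 and 5, all 40 transcripts were detected. These are called the 6 bright mice below. Of the other irradiated mice, young mice 1, 3 and 6 had 20, 15 and 14 of the 40 and old mice 1, 4 and 6 had 12, 30 and 25. Among young unirradiated mice 1 to 6 the numbers were 9, 12, 38, 36, 40 and 22, so mouse 5 also had them all. Among old unirradiated mice 1 to 6 they were 8, 9, 7, 8, 9 and 8. The old unirradiated mice were the only group without a mouse in which more than 9 of the transcripts were detected.

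**Figure D1:**
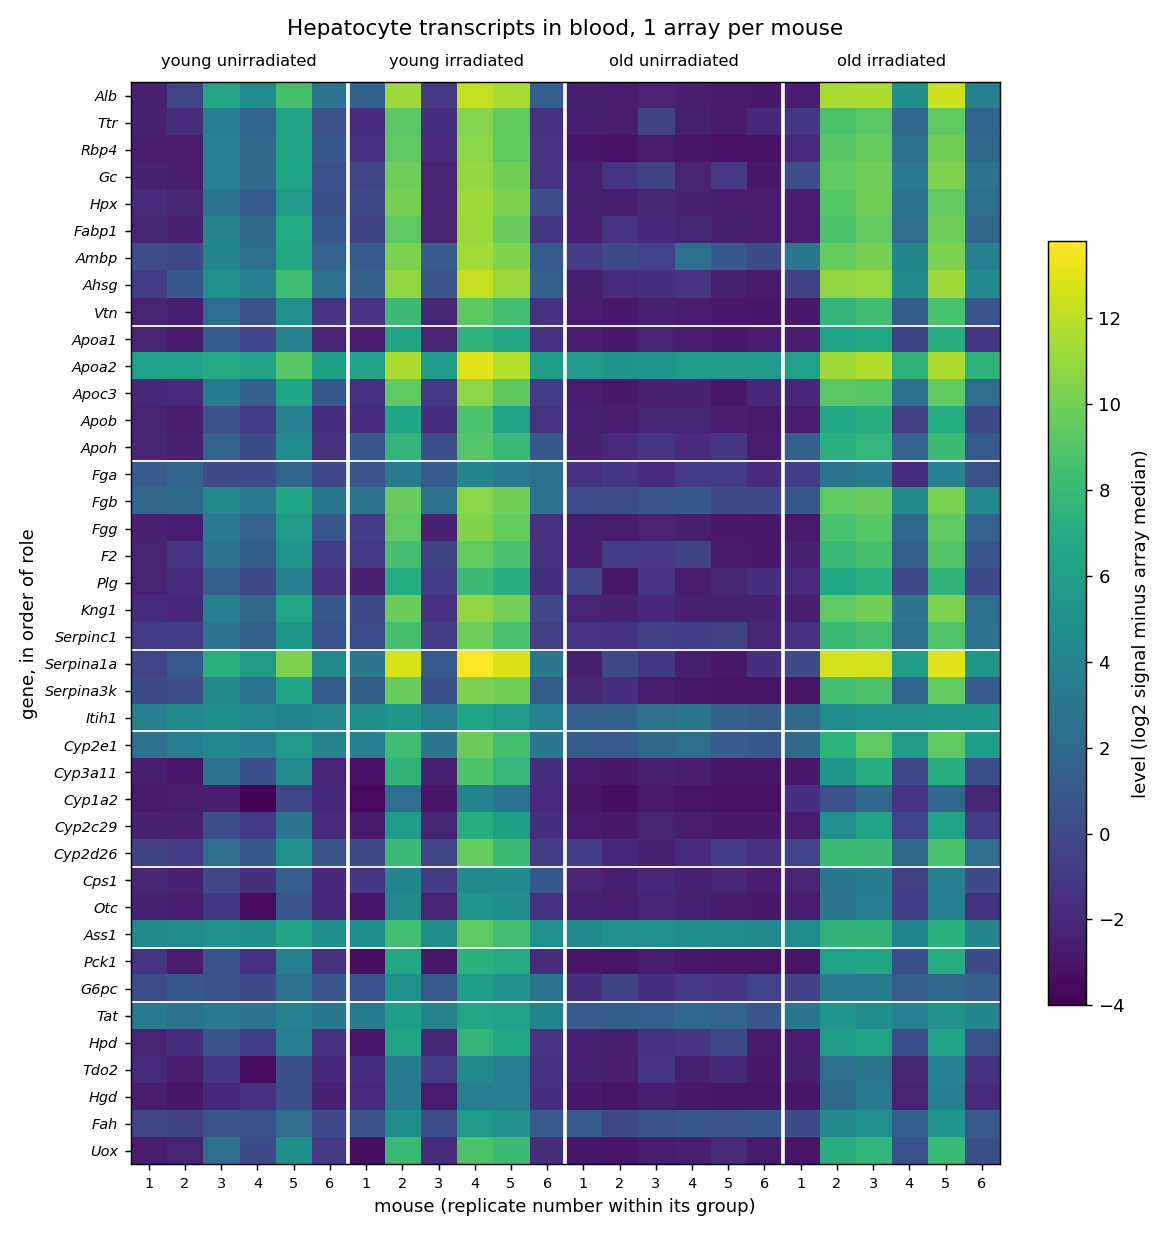
Log2 level of each hepatocyte transcript (rows, ordered by role) in each of the 24 mice (columns, ordered by group), where 0 is the median spot of the array. All 40 rows are bright in young irradiated mice 2, 4 and 5 and old irradiated mice 2, 3 and 5, and young unirradiated mouse 5 is the brightest of the unirradiated mice.

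The median level over the 40 transcripts was 8.18, 9.36 and 8.28 in young irradiated mice 2, 4 and 5 and -0.36, -0.99 and -0.86 in young irradiated mice 1, 3 and 6. In old irradiated mice 2, 3 and 5 it was 7.56, 7.99 and 8.45. Old irradiated mouse 1 was at -1.93, whereas mice 4 and 6 lay in between at 1.81 and 1.52. Young unirradiated mice 1 to 6 had medians of -2.05, -1.80, 2.91, 1.19, 5.0 and 0.44, and old unirradiated mice ranged from -2.61 to -1.90. Irradiated and unirradiated mice thus overlapped at each age in this median, with young unirradiated mouse 5 above young irradiated mice 1, 3 and 6.

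**Figure D2:**
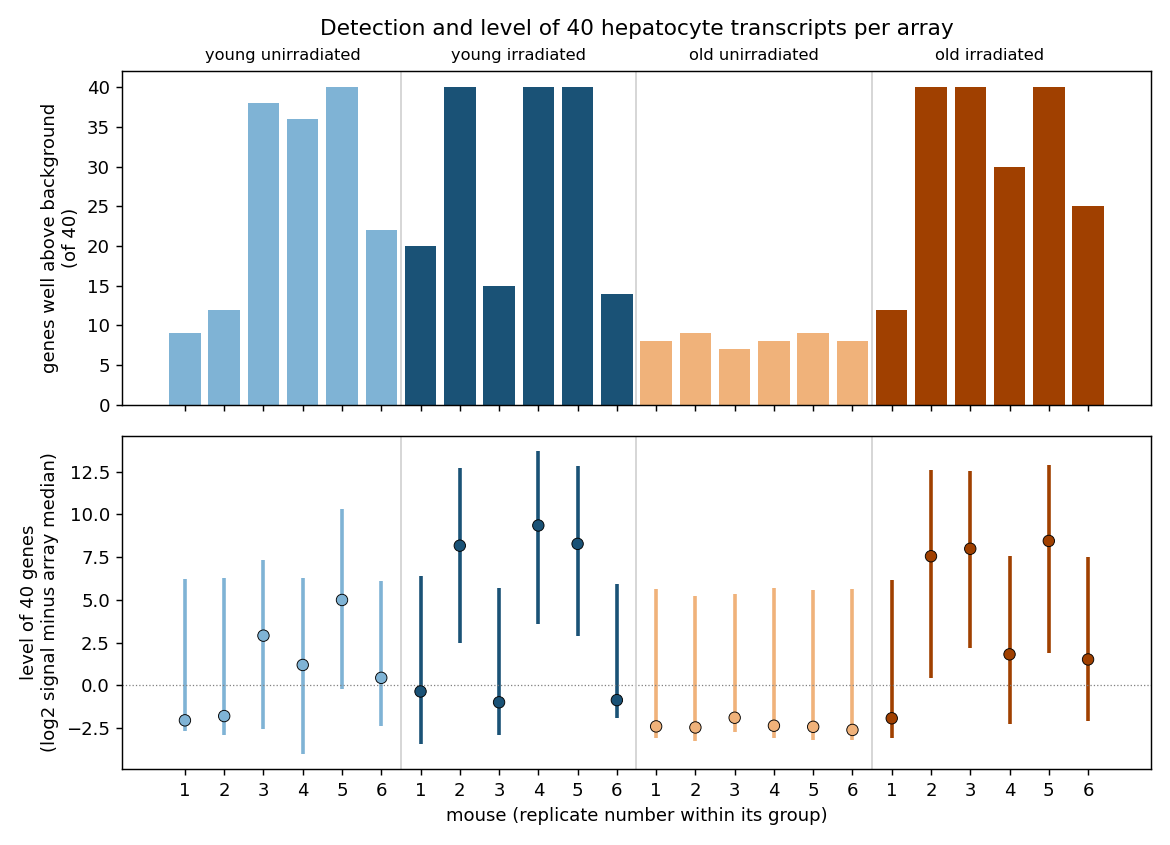
Number of the 40 transcripts well above background and their median log2 level in each mouse, by group. The 6 brightest mice have 40 of 40 and medians from 7.56 to 9.36, and the old unirradiated mice have 7 to 9 of 40.

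Mice with high and low levels shared slides. Slide 2 carried young irradiated mouse 2 (median 8.18) beside young irradiated mouse 1 (-0.36) and young unirradiated mice 5 (5.0) and 6 (0.44). Slide 3 carried young irradiated mice 4 (9.36) and 5 (8.28) beside mice 3 (-0.99) and 6 (-0.86). On slide 5 old irradiated mouse 2 (7.56) lay beside old irradiated mouse 1 (-1.93), and on slide 6 old irradiated mice 3 (7.99) and 5 (8.45) lay beside mice 4 (1.81) and 6 (1.52). Bright and dim mice shared a slide on each of the 4 slides that held irradiated mice.

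For 38 of the 40 transcripts, the lowest of the 6 bright mice was above the highest of the other 18 mice, an order that 2.64% of the 29742 genes show. The list was chosen on this contrast, so the count describes the list. The gap between the lowest of the 6 and the highest of the 18 was at least 2 units for 27 transcripts and had a median of 2.37. It was widest for *Hpx* (3.42) and narrowest, among those above 0, for *Fga* (0.27). *Itih1* and *G6pc* overlapped, by 0.73 and 0.92 units. The highest of the other 18 mice was young unirradiated mouse 5 for 35 of the 40 transcripts.

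Among the carriers and secreted proteins of plasma, *Alb* encodes albumin, its most abundant protein. *Alb* (A_51_P160713) had levels of 11.20, 12.17 and 11.55 in young irradiated mice 2, 4 and 5 and of 11.54, 11.58 and 12.44 in old irradiated mice 2, 3 and 5. Over all 6 mice of a group (lowest, median and highest), it was -2.38, 3.73 and 8.59 in young unirradiated, -1.07, 6.38 and 12.17 in young irradiated, -2.81, -2.57 and -2.25 in old unirradiated and -2.65, 8.20 and 12.44 in old irradiated mice. It was well above background in 4, 5, 0 and 5 mice of these groups, respectively. In both irradiated groups, mice in the range of the unirradiated mice stood beside mice far above it.

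*Ahsg*, which encodes fetuin-A, an inhibitor of calcification, had levels of -0.78, 3.21 and 8.24 in young unirradiated and of 0.73, 6.17 and 12.24 in young irradiated mice. It was at -2.71, -2.12 and -1.31 in old unirradiated and at -0.50, 7.64 and 11.17 in old irradiated mice. All 6 old irradiated mice thus exceeded every old unirradiated mouse. In old irradiated mouse 1 and in the old unirradiated mice the transcript was not well above background, so between these the order is not a measured difference. *Gc*, the vitamin D-binding protein, had the same order, with -2.77, -1.81 and -0.56 in old unirradiated and 0.18, 6.37 and 10.38 in old irradiated mice. It was well above background in all 6 old irradiated and in 0 old unirradiated mice. *Ambp*, the precursor of alpha-1-microglobulin and bikunin, was detected in all young mice, in 4 old unirradiated mice (-0.94, 0.00 and 2.44) and in all old irradiated mice (3.05, 6.86 and 10.31).

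*Hpx*, hemopexin, binds free heme. It reached 10.15, 11.20 and 10.28 in young irradiated mice 2, 4 and 5 and 9.08, 9.99 and 9.54 in old irradiated mice 2, 3 and 5, while the highest unirradiated value was 5.66. *Ttr* and *Rbp4*, which carry thyroid hormone and retinol, reached at most 6.40 and 6.55 in unirradiated mice and were between 8.84 and 10.49 and between 9.17 and 10.61 in the 6 bright mice. *Fabp1*, the fatty acid-binding protein of the hepatocyte cytosol, was between 8.82 and 11.16 there and *Vtn*, the adhesion protein vitronectin, between 7.69 and 9.29. These 5 transcripts were well above background in 0 of 6 old unirradiated and 5 of 6 old irradiated mice, the exception each time being old irradiated mouse 1.

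**Figure D3:**
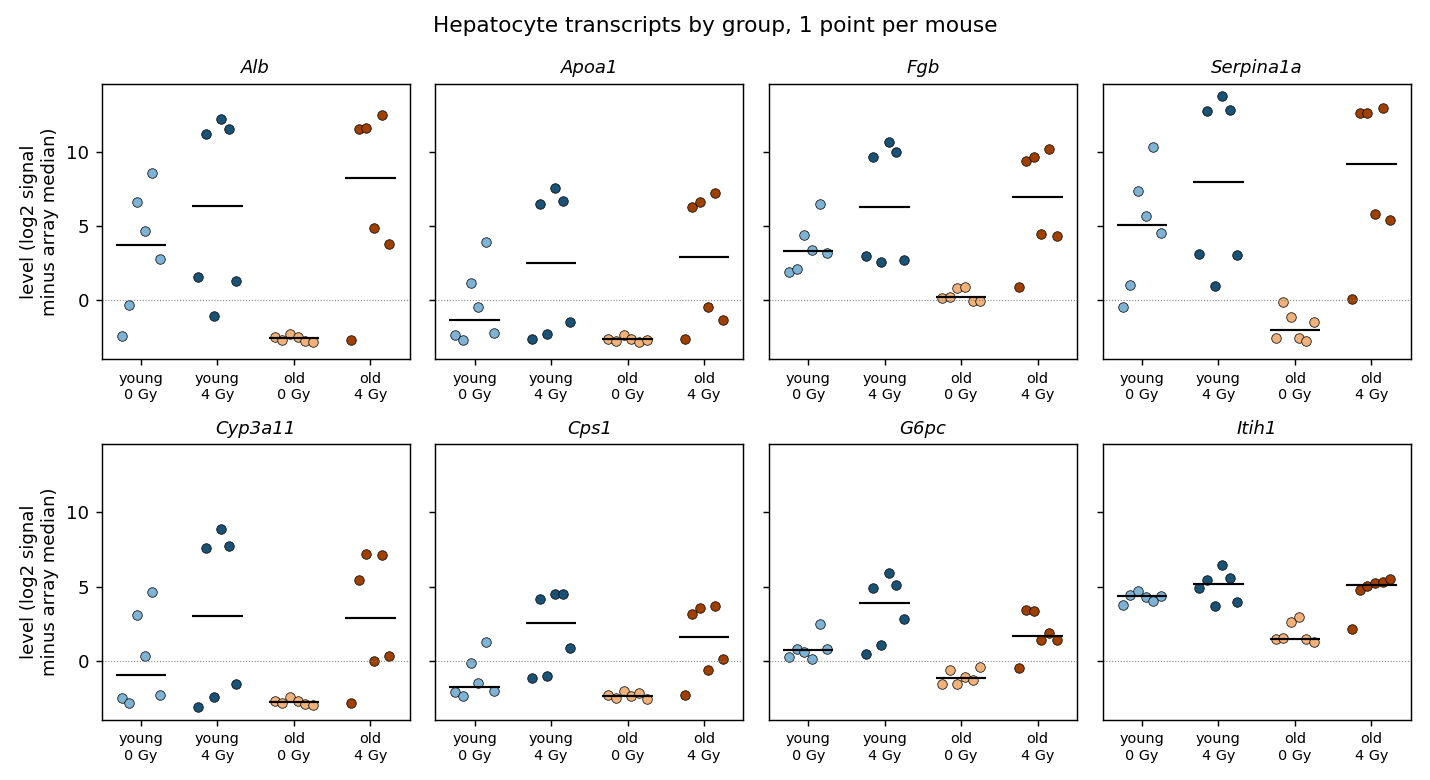
Log2 level (0 is the median spot of the array) of 8 transcripts, 1 panel each, in the 6 mice of each group, with a point per mouse and a line at the group median. In *Alb* the old unirradiated mice lie between -2.81 and -2.25, and the irradiated groups span from -1.07 to 12.17 and from -2.65 to 12.44.

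The apolipoproteins shape and coat lipid particles. *Apoa1*, the main protein of high density lipoprotein, was at 6.45, 7.57 and 6.67 in young irradiated mice 2, 4 and 5 and at 6.30, 6.63 and 7.25 in old irradiated mice 2, 3 and 5. It was well above background in 3 mice of each of the young unirradiated (-2.69, -1.33 and 3.91), young irradiated and old irradiated groups and in 0 old unirradiated mice. *Apob*, the scaffold of the particles that leave the liver, had a similar range, with 6.23 to 8.77 in the 6 bright mice and at most 3.91 elsewhere. *Apoc3*, which slows the clearance of triglyceride-rich particles, was between 9.10 and 10.72 in the 6 and at most 6.55 elsewhere. Its other probe gave a different picture, with -0.16 to 1.68 in the 6 bright mice and 0.22 to 2.32 in the others, so the contrast concerns what A_55_P2117155 detects. *Apoh*, a phospholipid-binding protein, was well above background in all 6 old irradiated mice (1.05, 4.46 and 8.23) and in 0 old unirradiated mice. *Apoa2*, the other structural protein of high density lipoprotein, was detected in all 24 mice on its representative probe. It was at 5.23 to 5.67 in old unirradiated and 11.26 to 12.99 in the 6 bright mice. Its other probe, A_55_P1966035, was detected in only 7 of the 18 mice outside the 6.

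Of the clotting group, *Fga*, *Fgb* and *Fgg* encode the chains of fibrinogen. *Fgb* was well above background in all 24 mice, with 1.87, 3.29 and 6.51 in young unirradiated, 2.59, 6.29 and 10.67 in young irradiated, -0.08, 0.19 and 0.88 in old unirradiated and 0.87, 6.93 and 10.19 in old irradiated mice. *Fgg* was undetected in all old unirradiated mice (-2.82, -2.60 and -2.25) and reached 8.70 to 10.41 in the 6 bright mice. *Fga* changed over a smaller span on its representative probe (A_55_P2123381), from between 2.89 and 4.15 in the 6 to at most 2.62 in the other 18. Its other probe, A_51_P193813, was between 5.07 and 6.29 in the 6 and at most 1.85 in the others, so the narrow span belongs to the first probe.

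*F2*, prothrombin, and *Plg*, plasminogen, were between 8.05 and 9.62 and between 6.62 and 8.18 in the 6 bright mice. Elsewhere they reached 5.26 and 3.85, both in young unirradiated mouse 5. *Kng1*, the precursor of bradykinin, and *Serpinc1*, antithrombin, behaved alike, with 9.39 to 10.93 and 8.11 to 9.89 against at most 6.59 and 5.52 elsewhere.

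*Serpina1a* encodes an alpha-1-antitrypsin and has near-identical neighbours in the mouse genome, so its probe may also read those. Its levels were -0.43, 5.09 and 10.29 in young unirradiated, 0.98, 7.93 and 13.74 in young irradiated, -2.75, -2.0 and -0.12 in old unirradiated and 0.09, 9.19 and 12.91 in old irradiated mice. Of the 18 mice outside the 6, this probe was detected in 12 and the other *Serpina1a* probe, A_55_P2010312, in 16. *Serpina3k*, a kallikrein inhibitor of another large family, was detected in all 12 young mice and in 0 old unirradiated mice (-3.09, -2.72 and -1.62). *Itih1*, a heavy chain of the hyaluronan-binding inter-alpha-trypsin inhibitor, had a narrow contrast, with 3.76, 4.35 and 4.74 in young unirradiated and 3.71, 5.18 and 6.49 in young irradiated mice. In old mice it was at 1.27, 1.49 and 2.95 without and 2.16, 5.14 and 5.49 with irradiation, and old irradiated mice 4 (5.23) and 6 (5.49) lay among the bright mice (4.76, 5.05 and 5.31).

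The cytochrome P450 enzymes oxidize drugs, steroids and fatty acids, and their families contain close copies that a probe may not separate. *Cyp2e1*, which oxidizes ethanol, was detected in all 24 mice, with 2.74, 3.88 and 5.53 in young unirradiated, 3.03, 6.09 and 9.79 in young irradiated, 0.90, 1.19 and 2.28 in old unirradiated and 2.06, 6.74 and 9.41 in old irradiated mice. The other probe of *Cyp2e1*, A_55_P1966690, was detected in only 4 of the 18 mice outside the 6 and fell to -2.81 there. *Cyp3a11*, *Cyp2c29* and *Cyp1a2* were detected in 3 mice of each irradiated group, the bright ones, and in 0 old unirradiated mice. *Cyp3a11*, the main steroid- and drug-oxidizing form, was at 7.60, 8.87 and 7.77 in the bright young and 5.48, 7.23 and 7.16 in the bright old mice. *Cyp1a2*, which oxidizes caffeine, was at 2.5, 4.06 and 2.91 and at 0.42, 2.16 and 1.96. *Cyp2d26* was detected in all 6 old irradiated mice (-0.41, 5.25 and 8.71).

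The urea cycle converts ammonia to urea. *Cps1* and *Otc*, its mitochondrial enzymes, were detected in 2 young unirradiated mice, 3 mice of each irradiated group and 0 old unirradiated mice. *Otc* was at 4.51, 5.33 and 4.69 in young irradiated mice 2, 4 and 5 and at 3.12, 3.72 and 3.79 in old irradiated mice 2, 3 and 5, and *Cps1* at 4.20, 4.51 and 4.5 and at 3.15, 3.54 and 3.71. *Ass1*, a cytosolic enzyme of the cycle that other cells also use to make arginine, was detected in all 24 mice, with 4.55, 4.84 and 6.42 in young unirradiated and 4.38, 4.60 and 4.97 in old unirradiated mice. In the bright old mice it was at 7.59, 7.59 and 7.39, below the 8.42, 9.42 and 8.48 of the bright young mice.

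*Pck1* and *G6pc* encode the enzymes that commit to and complete gluconeogenesis. *Pck1* was detected in 3 young unirradiated, 3 young irradiated, 0 old unirradiated and 4 old irradiated mice, with 6.19 to 7.39 in the 6 bright mice. *G6pc* was at 0.16, 0.72 and 2.49 in young unirradiated, 0.47, 3.87 and 5.90 in young irradiated, -1.55, -1.16 and -0.43 in old unirradiated and -0.47, 1.66 and 3.40 in old irradiated mice. Old irradiated mouse 5, whose *Alb* level was the highest of the 24, had a *G6pc* level of 1.89, below that of young unirradiated mouse 5.

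*Tat*, *Hpd*, *Hgd* and *Fah* encode enzymes of tyrosine breakdown. *Tat* was detected in all 24 mice, with 2.64, 3.29 and 3.91 in young unirradiated, 3.57, 4.98 and 6.59 in young irradiated, 0.74, 1.26 and 1.95 in old unirradiated and 3.01, 4.48 and 5.26 in old irradiated mice. All 6 old irradiated mice exceeded every old unirradiated mouse. *Hpd* reached 5.79 to 7.73 and *Hgd* 2.19 to 3.74 in the 6 bright mice. *Fah* differed from the rest in being detected in 6 old unirradiated mice (-0.12, 0.74 and 1.05) and 3 young unirradiated mice (-0.55, 0.21 and 2.28). *Tdo2*, which opens the tryptophan ring, and *Uox*, urate oxidase, were undetected in all old unirradiated mice and lay between 2.31 and 4.40 and between 7.22 and 8.84 in the 6 bright mice.

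Unirradiated young and old mice were compared with limma, since the choice of the list used the irradiated mice. Of the 40 transcripts, 20 passed the filter on dim probes, and 11 of these were lower in old unirradiated mice (p below 0.005 and adjusted p below 0.05 over all 17805 genes), where 15.4% of all genes were lower. None was higher, whereas 48.5% of all genes were. Without the filter 12 of 40 were lower, beside 11.1% of all 28871 genes, and 0 were higher, beside 29.1%. The filter keeps a transcript only if enough arrays show it, so the 20 are not a sample of the 40. Without the filter 39 of the 40 differences, old minus young, were below 0, as were 8665 of the 28871 genes. No old unirradiated mouse had a signal well above background for 29 of the 40, so the size of their difference was not measured. Its sign sets young signals against background. Most of the 40 also moved together among young unirradiated mice, so the 39 are not independent of each other and their number is not support.

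Of the 11, *Itih1*, *Tat*, *Cyp2e1* and *Fgb* were detected on the fitted probe in every mouse of both groups, which the other probe of *Cyp2e1* was not. *Itih1* had 4.29 ± 0.34 in young and 1.88 ± 0.71 in old unirradiated mice (SD, n = 6 each), a difference of -2.41 (SE 0.29, limma adjusted p = 2.0e-05). *Tat* had 3.21 ± 0.46 and 1.34 ± 0.43, a difference of -1.87 (SE 0.24, limma adjusted p = 3.0e-05), and *Cyp2e1* 3.99 ± 0.90 and 1.41 ± 0.55, a difference of -2.58 (SE 0.38, limma adjusted p = 7.3e-05). In each of these 3 all 6 young mice were above every old mouse. *Fgb* differed by -3.25 (SE 0.62, limma adjusted p = 0.000407) and by -2.67 without young unirradiated mouse 5, again with all 6 young mice above every old mouse. *Serpina1a* was detected on the fitted probe in 5 young mice and 1 old mouse and differed by -6.50 (SE 1.45, limma adjusted p = 0.00117). This sets young levels mostly against unmeasured signals near background, so its size is not read and the p-value is not support. Outside the 6 bright mice the fitted probe fell to -2.75, and the other probe, A_55_P2010312, only to -0.82. The difference on the fitted probe was -5.38, -7.53 and -7.24 without young unirradiated mice 5, 1 and 2.

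For the other 6, no old unirradiated mouse had a signal well above background, so the fold is a lower bound. It sets the mean of the young mice against the higher of the dim signal and the lowest signal well above background on each old array. Their p-values compare young levels with unmeasured signals near background, after a filter that also used the irradiated mice. Only the bound is therefore read, and the p-values are not support. *Ahsg* was at least 17.0-fold higher in young mice (limma adjusted p = 0.00082), 8.61-fold without young unirradiated mouse 5 and 30.1-fold without mouse 1. *Serpina3k* was at least 9.16-fold higher (limma adjusted p = 0.000324) and 5.27-fold without mouse 5, with all 6 young mice above every old mouse. *Apoc3* was at least 4.52-fold higher (limma adjusted p = 0.00763), 2.22-fold without mouse 5 and 7.26-fold without mouse 1, and *Cyp2d26* at least 4.01-fold (limma adjusted p = 0.00632) and 2.35-fold without mouse 5. *Fga* and *G6pc* were at least 2.91-fold and 2.82-fold higher (limma adjusted p = 0.000227 and 0.000304), with all 6 young mice above every old mouse in both. For *Fga* this concerns probe A_55_P2123381 only, since its other probe, A_51_P193813, was detected in only 2 of the 18 mice outside the 6 bright ones. *Apoc3* and *Cyp2d26* missed the threshold in 9 and 8 of the 12 fits that left out a single array, while the other 9 calls passed in all of them.

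Of the 9 remaining transcripts with a test, *Fah* had the only difference above 0 (0.21, limma adjusted p = 0.649). *Ambp* (-2.15), *Plg* (-1.79, detected in 1 old mouse) and *Ass1* (-0.40) did not pass, nor did *Apoa2* (-1.29, limma adjusted p = 0.0136), for which all 6 young mice were nonetheless above every old mouse. *Apoh*, *F2*, *Gc* (fitted on its probe A_51_P349961) and *Serpinc1* did not pass either, and no old unirradiated mouse showed them above background, so no difference is given. Across the 40 transcripts this order held for 11, against 7.62% of all genes. With the 75th percentile in place of the median as the scale, the median of all genes moved from 0.63 to -0.0023 and 12 of the 20 were lower in old mice. Correction of background by the normexp model left 0 of 20 and 0 genes in all, with 9 of the 20 at an unadjusted p below 0.05. A single fit of all 24 arrays left 2 of 20 (*Itih1* and *Tat*), with 34.9% of all genes called in either direction. Scan day and age cannot be told apart in this comparison.

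Within young unirradiated mice most transcripts moved together. Mouse 5 was the highest of the 6 for 38 transcripts, and the exceptions were *Fga* (mouse 2) and *Itih1* (mouse 3). In mice 1 to 4 *Fga* ran opposite to *Alb*, with 1.21, 1.81, 0.05 and 0.12 against -2.38, -0.35, 6.62 and 4.68. *Itih1* and *Tat* varied little (SD 0.34 and 0.46). *Fga*, *Itih1* and *Tat* were all called lower in old unirradiated mice. Over the 38 transcripts well above background in both mice, mouse 5 exceeded mouse 3 by a median of 2.52 units (SD over transcripts 0.81). The difference ran from -0.67 for *Itih1* to 3.52 for *Apob*. Young irradiated mouse 4 exceeded young unirradiated mouse 5 by a median of 4.12 units over the 40 (SD 0.65), from 2.41 for *Fga* to 5.54 for *Hpx*. The spread over transcripts is not a replicate error, since all transcripts of a mouse come from the same RNA.

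The irradiated mice outside the 6 were set against the unirradiated mice of their age. Young irradiated mice 1, 3 and 6 together exceeded every young unirradiated mouse for 0 of the 40 transcripts (11.7% of all genes), and all 3 were below young unirradiated mouse 5 for 36 (26.7% of all genes). Old irradiated mice 1, 4 and 6 together exceeded every old unirradiated mouse for 10 of the 40 (11.9% of all genes). Mice 4 and 6, whose arrays stood apart, both exceeded every old unirradiated mouse for 36 of the 40 (42.9% of all genes), and mouse 1 was below both for 36 (53.3%). The reference differs between the ages, because old unirradiated mice had low levels throughout and young unirradiated mice did not. Young irradiated mice 2, 4 and 5 exceeded every young unirradiated mouse for all 40 (14.0% of all genes), as did old irradiated mice 2, 3 and 5 every old unirradiated mouse (9.98% of all genes).

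The fits across all genes used the contrast that chose the list, so nothing is read from their counts. In them 1 of 20 transcripts (*Tat*) was higher after irradiation in young mice (14.3% of all genes) and 16 of 20 in old mice (7.49% of all genes). Without the filter on dim probes these were 1 of 40 (9.02%) and 34 of 40 (5.39%). None was lower at either age (21.1% and 17.4% of all genes with the filter). Leaving out a single array gave 3 transcripts in young mice without young irradiated mouse 1 or 3, 1 without young irradiated mouse 6 or young unirradiated mouse 5 and 0 without any of the other 8. Without the 6 bright mice the counts were 0 and 13 of 20, beside 5866 and 7169 of all 17805 genes, and old irradiated mice 4 and 6 were then 2 of the 3 old irradiated mice. With the slide as a block they were 0 and 0, beside 1824 and 495 genes, with 0 and 8 of the 20 at an unadjusted p below 0.05. Only slide 2 (young) and slide 5 (old) held both irradiated and unirradiated mice. This fit therefore compared them only on those slides and left the contrast of most mice unused. Without old irradiated mice 4 and 6 the count in old mice was 20 of 20, beside 6129 genes. Old and young irradiated mice differed in 0 of 20 transcripts (1.40% of all genes higher and 0.595% lower), with 0 at an unadjusted p below 0.05. The share of all genes in this comparison was unstable, since 355 genes were called, 2 with the replicate number as a block and 5052 without old irradiated mice 4 and 6. The interaction of age and radiation called 0 of 20 and 0 of all genes (2 of 20 at an unadjusted p below 0.05), and 8 of 20 without the 6 bright mice, beside 3652 of all genes. Where no old unirradiated mouse showed a transcript, only a lower bound exists for the fold of the mean of the 6 old irradiated mice. It ran from 1.63-fold for *Cyp1a2* to 206-fold for *Alb* (95.9-fold without mouse 5 and 777-fold without mouse 1). The next largest was that of *Ahsg*, at 201-fold (111-fold and 559-fold). This mean joins bright mice 2, 3 and 5, which the choice of the list used, with dimmer mice, so the bounds only describe the group.

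The 6 bright mice were also compared with each other, transcript by transcript. Young irradiated mice 5 and 2 had nearly the same profile, with a median difference of 0.19 over the 40 transcripts and an SD of 0.12. Over 13720 probes these arrays differed by an SD of 0.266. Among pairs of mice of the same group, only old unirradiated mice 1 and 6 differed less (0.178). The labels name the mice of both pairs as separate mice and they were kept as separate samples. As an alternative the very similar arrays of each pair were counted as 1 sample. Young irradiated mouse 4 was above mouse 2 by a median of 1.07 (SD 0.37), from 0.17 for *Hgd* to 2.29 for *Apob*. Old irradiated mouse 3 was above mouse 2 by 0.48 (SD 0.49), with the largest differences in *Cyp2e1* (1.89) and *Cyp3a11* (1.75), and mouse 5 was above mouse 3 by 0.34 (SD 0.39), with *G6pc* at -1.46 and *Alb* at 0.86. Repeat spots show how finely such differences can be read, since the SD over 10 spots on an array was 0.017 to 0.047 for *Apoa1*, 0.046 to 0.098 for *Cyp2c29* and 0.049 to 0.079 for *Vtn*.

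On the level scale, the bright old mice were below all bright young mice for 10 of the 40 transcripts (10.2% of the 14280 genes well above background in all 6) and above them for 0 (39.9%). The 10 were *Hpx*, *Serpina3k*, *Itih1*, *Cyp3a11*, *Cyp1a2*, *Cps1*, *Otc*, *Ass1*, *G6pc* and *Tat*. To set aside how much hepatocyte RNA each mouse had in all, the median of the 40 levels of the same array was subtracted from each transcript. On this centred scale the old mice were below the young for 5 transcripts (1.17% of the same genes), above for 12 (51.6%) and overlapping for 23. The centring moves every other gene by the hepatocyte signal of its array and balances the 40 around 0. These 2 shares therefore follow from the centring, and the counts of 5 and 12 are not read against them. These mice were chosen for their levels, so the orders are a description of 3 against 3 mice.

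The 5 lower transcripts were enzymes, while the enzymes *Cyp2e1*, *Cyp2c29*, *Cyp2d26*, *Cps1*, *Pck1*, *Tat*, *Hpd*, *Tdo2*, *Hgd* and *Uox* overlapped and *Fah* was higher. *G6pc* was at -3.25, -3.46 and -3.16 in young irradiated mice 2, 4 and 5 and at -4.15, -4.64 and -6.56 in old irradiated mice 2, 3 and 5 on the centred scale, the widest separation of the 40. *Cyp1a2* was at -5.67, -5.29 and -5.37 and at -7.13, -5.84 and -6.49. *Cyp3a11* was at -0.57, -0.49 and -0.51 and at -2.08, -0.76 and -1.29, so that the young mice lay within 0.09 units and the old mice spread over 1.31. *Otc* (-3.67, -4.02 and -3.59 against -4.43, -4.28 and -4.66) and *Ass1* (0.24, 0.06 and 0.20 against 0.04, -0.40 and -1.06) completed the set. On the second probes of *Cyp3a11*, *Otc* and *Ass1* the ages overlapped.

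The 12 higher transcripts were *Alb*, *Rbp4*, *Gc*, *Vtn*, *Apoa1*, *Apoh*, *Fga*, *F2*, *Plg*, *Kng1*, *Serpinc1* and *Fah*. The share of other genes in this order (51.6%) follows from the centring, so 12 of 40 is not read against it and no class is read from it. All but *Fah* encode secreted proteins. So do *Ttr*, *Hpx*, *Ambp*, *Ahsg*, *Apoa2*, *Apoc3*, *Apob*, *Fgb*, *Fgg*, *Serpina1a*, *Serpina3k* and *Itih1*, which overlapped. *Alb* was at 3.03, 2.81 and 3.26 in the young and 3.99, 3.59 and 3.99 in the old mice on the centred scale. *Rbp4* was at 1.18, 1.25 and 1.21 and at 1.61, 1.63 and 1.51, and *Apoa1* at -1.73, -1.78 and -1.61 and at -1.26, -1.36 and -1.21. For *Apoh*, *Serpinc1* and *Vtn* the nearest old and young mice were only 0.00214, 0.00398 and 0.017 apart, no more than the SD of repeat spots given for *Vtn*. The ages overlapped on the second probes of *Fga* and *Kng1*, while that of *Gc* kept the order.

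**Figure D4:**
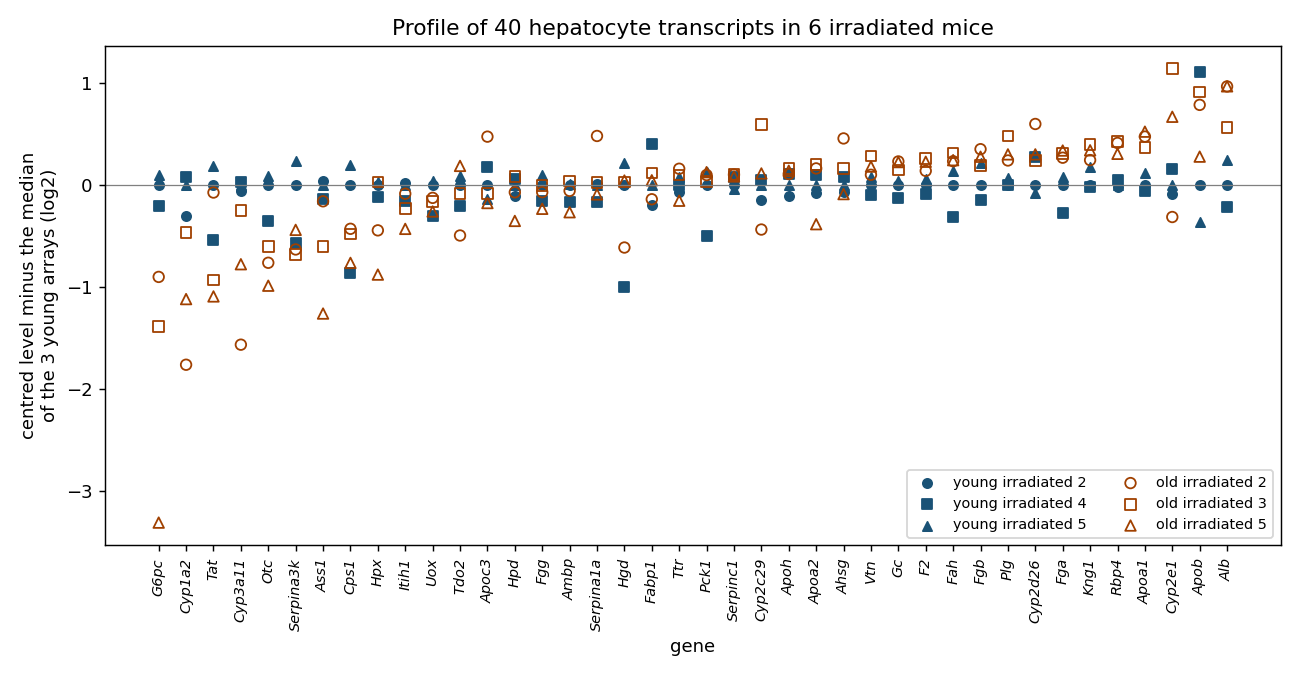
Profile of the 40 transcripts in the 6 bright mice, as the level centred on the array's median over the 40 minus the median of the 3 young mice, on a log2 scale (filled points are young and open points old irradiated mice). *G6pc* and *Cyp1a2* have all 3 old mice on the low side, and *Alb* and *Rbp4* have them on the high side.

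The order of *G6pc* was the same with all values tried (median scaling, quantile normalization, normexp correction and the deposited log2 values), as was that of *Fga*, *F2* and *Plg*. In the deposited values, however, the nearest old and young mice were at -1.251 and -1.255 for *Plg* and at 0.394 and 0.364 for *F2*. These gaps are no more than the SD of repeat spots given for *Vtn*. Quantile normalization gave 4 transcripts lower and 14 higher in old mice, normexp gave 3 and 9, and the deposited values, which hold 25 of the 40, gave 2 and 3. Of the other 4 lower transcripts, *Cyp1a2*, *Ass1* and *Otc* overlapped after normexp correction and *Otc* also after quantile normalization. *Otc* and *Cyp3a11* overlapped in the deposited values, which for them lie near their second probes. In young irradiated mouse 2 the centred deposited values were -6.02 and -3.66. The second probes were at -6.04 and -3.55 and the representative ones at -3.67 and -0.57. These overlaps therefore repeat those of the second probes and are not separate evidence on the scale.

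Other gene lists place these transcripts among the markers of liver and other cells, using in each case the order in which the lowest of the 6 bright mice is above the other 18 (2.64% of all genes). A further 42 hepatocyte genes outside the 40, such as complement and clotting factors and bile acid enzymes, were detected to 40 to 42 of 42 in the 6 bright mice and to 11 to 15 of 42 in old unirradiated mice, and 35 of 42 had this order. *F10*, coagulation factor X, was between 8.18 and 9.17 in the 6 and between 4.62 and 8.09 elsewhere. *Slc10a1*, the bile acid transporter of hepatocytes, did not follow, with 11.42 to 12.46 in the 6 and 11.91 to 13.26 elsewhere. *Hp*, haptoglobin, which neutrophils also contain, was between 10.73 and 12.33 and between 6.87 and 11.99.

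Of 13 liver transcription factors, 9 to 13 were detected in the 6 bright mice and at most 6 elsewhere, and 7 had this order. *Hnf4a*, a nuclear receptor of hepatocyte identity, was between 5.25 and 7.26 in the 6 and between -2.76 and 2.65 in the others. *Creb3l3*, a factor of the fasting response, was between 5.42 and 7.40 and between -2.76 and 2.92. *Onecut1* (2.91 to 3.27 against at most -0.58), *Foxa2* (1.52 to 2.92 against at most -1.26), *Nr5a2*, *Foxa1* and *Foxa3* had the same order. *Nr1i3*, *Nr1h4*, *Nr1i2*, *Nr0b2* and *Prox1* overlapped.

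Genes of both ends of the lobule were also examined. Of 10 genes of the periportal end, 7 had the order and all 10 were detected in each of the 6. *Hal*, which breaks down histidine, was between 5.85 and 6.93 in the 6 and at most 4.08 elsewhere, while *Pigr* and *Ctsc* overlapped. Of 10 genes of the pericentral end, 2 had the order (*Rgn* and *Gulo*), and 6 to 9 were detected in the 6 and 4 to 8 in the others. *Glul*, glutamine synthetase, was between 6.48 and 7.06 in the 6 and between 4.79 and 6.63 elsewhere, and *Oat* and *Lhpp* overlapped as well. The counts of these lists were not compared with each other.

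Genes of other liver cells were counted in the same way. The order held for 2 of 9 genes of the sinusoidal endothelium (*Stab1* and *Gpr182*), 1 of 9 of Kupffer cells (*C6*), 0 of 9 of stellate cells and 0 of 9 of bile duct cells. Kupffer cell genes were nevertheless detected to 8 of 9 in each of the 6 and to 3 to 7 of 9 elsewhere, and the log2 of their summed signal was 9.02 to 10.77 in the 6, 3.85 to 7.53 in young unirradiated and 4.54 to 7.28 in old unirradiated mice. It was 8.85 to 9.88 in young irradiated mice 1, 3 and 6, above every unirradiated mouse and overlapping the 6, and 5.59 to 7.68 in old irradiated mice 1, 4 and 6. For the endothelial list this log2 sum was 6.65 to 6.84 in bright young and 7.15 to 7.21 in bright old mice. The other irradiated mice had 6.48 to 6.71 and 7.23 to 7.48, and unirradiated mice 5.31 to 5.65 and 5.69 to 6.48. For the stellate list it was 6.17 to 6.30 and 4.68 to 5.62 in the bright mice. The other irradiated mice had 2.46 to 5.43 and 1.81 to 2.59, and unirradiated mice 2.28 to 4.05 and 2.35 to 4.52. The bile duct sums overlapped. *Cd5l*, a macrophage protein of plasma, was between 7.97 and 9.97 in the 6 and between 0.04 and 9.45 elsewhere. *Marco*, a scavenger receptor, was between 6.31 and 9.24 and between -0.51 and 7.21. *Dcn*, decorin, of the stellate list was between 4.24 and 5.83 and between -2.17 and 4.71. *Slc40a1* of the Kupffer list, *Clec4g*, *Fcgr2b* and *Bmp2* of the endothelial list, *Ngfr* and *Col3a1* of the stellate list and *Tspan8*, *Cldn4* and *Krt7* of the bile duct list, the brightest of their lists that are not yet named, overlapped between the 6 and the others. *Cd163* of the Kupffer list and *Flt4* of the endothelial list were not well above background in any mouse.

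Markers of other organs were counted likewise. The order held for 0 of 10 heart, 0 of 9 skeletal muscle, 0 of 9 kidney, 0 of 7 lung and 0 of 7 pancreas genes, and for 1 of 8 fat genes (*Car3*). Of 8 intestine genes it held for *Fabp2* (2.82 to 5.39 in the 6 and at most 0.72 elsewhere) and for *Apoa4*, which mouse liver also makes. *Myl3* of the heart was between 2.52 and 5.69 in the 6 and between 2.01 and 6.84 elsewhere. Other genes with high means in these lists (*Myl2*, *Myh6*, *Tnni2*, *Pvalb*, *Tnnt3*, *Aqp2*, *Slc34a1*, *Napsa*, *Scgb1a1*, *Sftpd*, *Ctrb1*, *Cel*, *Cela1*, *Lgals4*, *Fabp4*, *Retn* and *Lep*) overlapped as well. The order held for 0 of 10 leukocyte genes, among them *S100a8* and *Itgam*, with *S100a9* between 11.45 and 13.45 in the 6 and between 9.68 and 14.08 elsewhere. The part of liver cells or of any other organ in the hepatocyte signal was not tested.

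**Figure D5:**
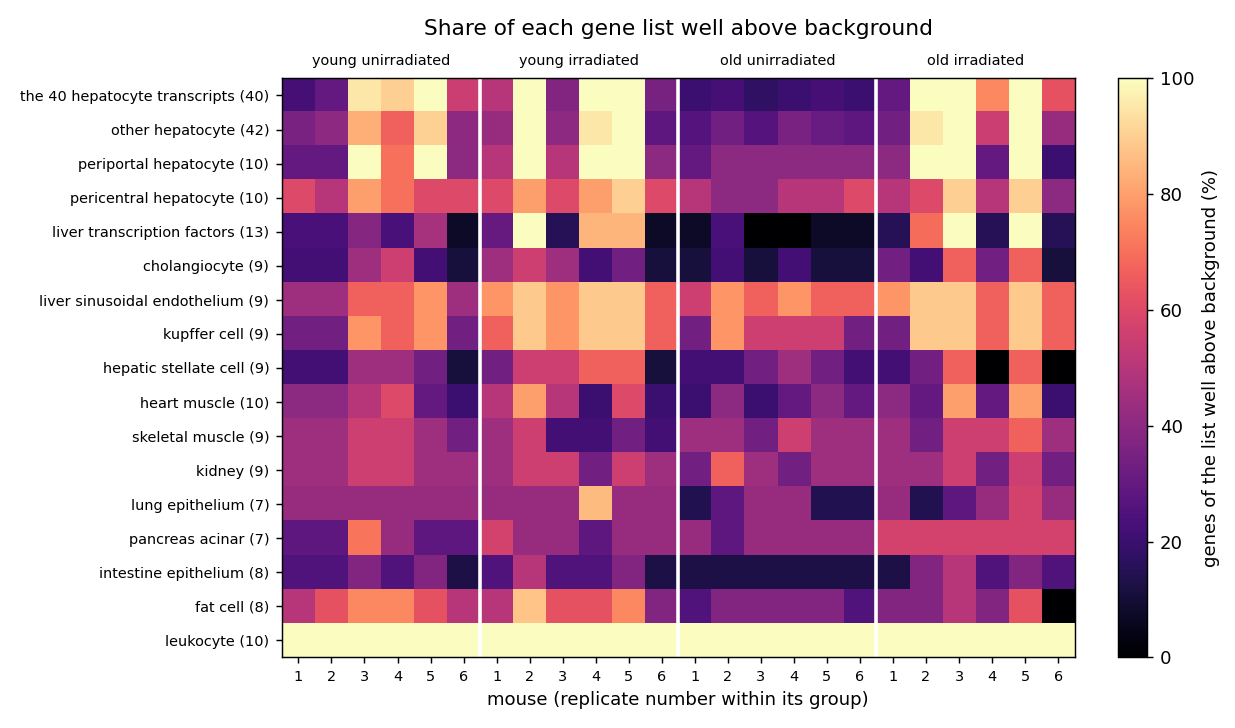
Percent of the genes of each list well above background in each of the 24 mice, by group. The 40 transcripts are all detected in the 6 bright mice and in young unirradiated mouse 5, all 10 leukocyte genes are detected in every mouse, and the lists of heart, skeletal muscle and kidney overlap between the bright and the other mice.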

How the data were processed

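Blood RNA of 24 mice was measured on 24 single-dye arrays. Each array has a file of intensity values that the authors deposited as written by Agilent Feature Extraction 12.0.2 (named in the submitters' processing notes). They are background-subtracted and unscaled between arrays. The log2 values that the authors deposited as 1 table of the whole series had been filtered and normalized beforehand and served as an alternative. They cover 17166 probes with a median of 5.77 to 6.73 per array, and their centring is unknown beyond the median normalization that the methods name. They ran in the same direction as the scanner values on every array (Pearson's r 0.995 or higher across probes, which are not independent replicates).

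Non-uniform intensities were set to missing, log2 was taken, each array's median over all non-control spots was subtracted, and repeat spots were averaged. Levels of the 40 transcripts and counts over all genes used, for each gene, the probe with the highest mean over the 24 arrays, without a filter. For tests, a probe was dropped where 25% of arrays or more had it non-uniform or not positive and significant (24130 of 39429 stayed, for 18737 genes). A gene was then kept where 20% of arrays or more lay 1.5-fold from its median (17805 genes), following the methods. Groups were compared in limma 3.58.1 (lmFit and eBayes, two-sided) on the arrays of both groups. A call needed an unadjusted p under 0.005 and, after Benjamini-Hochberg adjustment over all genes tested, one under 0.05. The labels name separate mice as replicates, whose numbers do not pair them. The number of arrays limits the precision.

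The 40 transcripts, the other gene lists and the tests were chosen with earlier results of these data known. All 40 transcripts are accounted for. Of each other list the 3 genes with the highest mean after the filter are named, and all liver transcription factors detected in at least 3 arrays, apart from a few genes that are not reported here. *Rgn*, *Gulo*, *Stab1*, *Gpr182*, *C6*, *Cd163*, *Flt4*, *Car3* and *Apoa4* were named after their values were seen. The 4 promoters printed are those of the first transcripts in list order with a match to GTTAAT, a motif picked after the matches were seen.

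Alternative scales were the 75th percentile, quantile normalization and the median over probes that all arrays show well above background. Other alternatives were normexp background correction (offset 50), the deposited log2 values, leaving off either filter, averaging a gene's probes, fitting all 24 arrays together, a block for the replicate number or the slide, leaving out each array and leaving out the 6 bright mice. Chosen after seeing the data were counting very similar arrays as 1 sample and leaving out old irradiated mice 4 and 6 together. The fits were tested on simulated data, in which 200 of 17805 genes were given a log2 change of 2. The share recovered was 85.5% between young mice, 56% between old mice, 96% between unirradiated mice and 55% between irradiated mice. Software was R 4.3.3 with data.table (version 1.17.8), Python 3.11.15, NumPy 2.4.6, pandas 2.3.3 and Matplotlib 3.10.9.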

Additional observations from a re-analysis of the deposited data

Results flagged for a closer look

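In 131 groups of 6 mice, the gap between the highest or lowest level and its neighbour was set against the range of the group (Dixon's criterion), which chance passes in about 1 of 20 groups. Young unirradiated mouse 5 stood above the rest of its group for *Apoa2* (9.14 on the log2 scale, the next at 6.88), for *Ass1* (6.42, the next at 5.04) and for *G6pc* (2.49, the next at 0.82). Old irradiated mouse 1 stood below the rest of its group for *Itih1* (2.16, the next at 4.76).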

How the results depend on the processing

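The counts below are of hepatocyte transcripts that pass both thresholds of limma. After irradiation in young mice the count was 1 of 20. It was 0 with normexp correction, with the deposited values, with the slide as a block, without the 6 bright mice and with very similar arrays counted as 1 sample, 2 with a single fit of all 24 arrays, and 0 to 3 when each array was left out. In old mice it was 16 of 20, and 0 with normexp correction or with the slide as a block, 34 of 40 without the filter on dim probes, and 14 to 19 when each array was left out. Between unirradiated mice 11 of 20 were lower in old mice, 0 with normexp correction and 2 in the fit of all 24 arrays. The count was 9 with very similar arrays counted as 1 sample and 9 to 12 when each array was left out. The interaction called 0, and 8 without the 6 bright mice. Old and young irradiated mice differed in 0 transcripts under every alternative run. Where a count of 0 was found, transcripts at an unadjusted p below 0.05 numbered 15 (young mice), 18 (old mice) and 9 (unirradiated mice) of 20 with normexp, and 0 and 8 of 20 (young and old mice) with the slide block. In young mice they numbered 5 of 23 with the deposited values, 1 of 20 without the 6 bright mice and 3 of 20 with similar arrays counted once, and between irradiated mice 0 to 4 under the alternatives. The slide block compared irradiated with unirradiated mice only on slides 2 (young) and 5 (old), the slides that held both. The cause of the other changes was not tested. With the replicate number as a block the counts were 1, 16, 12, 0 and 0, and the block did not move any of them by over 1.5 times. Mice of the same number deviated together with correlations from -0.597 to 0.582, so the numbers do not pair them. No called value changed sign. Among single transcripts 2642 values kept their side of the threshold, 107 lost it, 40 gained it and 14 moved. The normexp offset of 50 exceeds the median signal of every array (8.66 to 44.8), and dim transcripts in old unirradiated mice have no measured level.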
